A study of Mus musculus with 4 samples.

Results

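Xenobiotic metabolism enzymes were examined in sorted Lgr5-GFP high intestinal stem cells, as the genes whose symbols place them in the cytochrome P450 families Cyp1 to Cyp4 or among the glutathione S-transferases (Gst), the UDP-glucuronosyltransferases Ugt1 and Ugt2, or the sulfotransferases Sult1 to Sult5. The symbol rule took 120 of the 18436 genes of the expression table: 70 Cyp, 21 Gst, 17 Ugt and 12 Sult genes, of which 3 carry pseudogene symbols and 1 is named as an opposite-strand RNA. Expression was given as FPKM, which is relative to transcript length and to the total of each library. A gene was tested when its mean FPKM over the 4 mice was 0.5 or more, and 61 of the 120 passed: 28 Cyp, 18 Gst, 10 Ugt and 5 Sult genes.

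The experiment asked what deletion of CREPT, the protein encoded by Rprd1b, does to gene expression in Lgr5+ stem cells. Of the 4 libraries, 2 came from Lgr5-WT mice, which carried Lgr5-EGFP-IRES-creERT2 without the floxed gene, and 2 from Lgr5-CREPTKO mice, which carried the same allele with CREPT fl/fl. All mice were C57BL/6, both genotypes received intraperitoneal tamoxifen at 1 mg per day for 5 days, and GFP-high cells were sorted from dissociated crypts on day 7. The creERT2 was driven from the Lgr5 locus, and its GFP is mosaic, absent from some crypts. The 2 libraries of each genotype came from 2 different mice. Animals of both sexes, aged 6 to 8 weeks, were used, and the sex and age of each are not given in the sources used here. Rprd1b was 17.7 and 18.1 FPKM in the Lgr5-WT mice and 6.65 and 7.36 in the Lgr5-CREPTKO mice, and it fell by 1.29 on the log2 scale (SE 0.0946, adjusted p = 0.0280, limma's moderated test with Benjamini-Hochberg adjustment). Its remaining level was above 0 in both knock-out libraries. Lgr5 was 47.7 and 37.7 FPKM in Lgr5-WT and 52.0 and 60.1 in Lgr5-CREPTKO, and Olfm4, another stem cell marker, lay between 4932 and 5351 FPKM in all 4.

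Foreign compounds are usually cleared in steps. Cytochrome P450 enzymes and other oxidases, reductases and hydrolases expose or add a reactive group (phase I), transferases then attach glutathione, glucuronic acid or sulfate (phase II), and ATP-driven pumps export the products. The gut epithelium meets dietary compounds first, and several of these enzymes also handle endogenous substrates such as fatty acids, retinoids, steroids and bilirubin.

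Promoters are shown for 4 Gst genes: Gstm2, the one member past the adjusted threshold, Gstp2 and Gstm5, which came close to it, and Gstp1, the most abundant member and the neighbour of Gstp2. Gstt2, whose adjusted p lay between those of Gstp2 and Gstm5, had no promoter sequence in the reference. Gstm5 was chosen after its values were seen. The sequences are from RefSeq on GRCm38.p6, 250 bases before to 50 bases after the start of transcription, on the gene's own strand: Gstm2 at chr3:107986371-107986670 (minus strand), Gstm5 at chr3:107895604-107895903 (plus), Gstp1 at chr19:4037863-4038162 (minus) and Gstp2 at chr19:4042172-4042471 (minus). Capitals mark matches, on either strand, to the core of the antioxidant response element (TGACNNNGC or TGAGNNNGC) or of the xenobiotic response element (GCGTG).
Gstm2: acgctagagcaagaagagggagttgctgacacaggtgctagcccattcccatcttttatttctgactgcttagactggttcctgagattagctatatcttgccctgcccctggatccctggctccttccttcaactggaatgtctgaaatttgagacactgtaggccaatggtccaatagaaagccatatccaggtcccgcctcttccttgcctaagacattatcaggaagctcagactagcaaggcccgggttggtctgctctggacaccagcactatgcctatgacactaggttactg
Gstm5: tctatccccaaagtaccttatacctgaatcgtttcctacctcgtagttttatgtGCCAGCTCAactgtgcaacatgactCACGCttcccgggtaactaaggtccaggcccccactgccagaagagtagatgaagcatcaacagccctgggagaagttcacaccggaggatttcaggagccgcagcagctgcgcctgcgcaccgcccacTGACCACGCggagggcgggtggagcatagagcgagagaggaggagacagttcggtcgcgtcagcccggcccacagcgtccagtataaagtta
Gstp1: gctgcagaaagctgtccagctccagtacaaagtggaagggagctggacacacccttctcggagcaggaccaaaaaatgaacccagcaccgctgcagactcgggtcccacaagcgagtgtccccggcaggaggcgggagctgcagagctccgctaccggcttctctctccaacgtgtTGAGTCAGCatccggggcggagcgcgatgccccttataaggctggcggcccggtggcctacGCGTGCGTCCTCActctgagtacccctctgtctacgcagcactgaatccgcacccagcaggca
Gstp2: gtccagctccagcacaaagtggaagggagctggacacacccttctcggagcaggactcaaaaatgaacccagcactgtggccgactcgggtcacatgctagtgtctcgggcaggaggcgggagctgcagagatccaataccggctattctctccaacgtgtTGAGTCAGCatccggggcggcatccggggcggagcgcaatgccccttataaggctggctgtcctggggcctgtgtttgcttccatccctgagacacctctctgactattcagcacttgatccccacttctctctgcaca
Gstp1 and Gstp2 held the same antioxidant core, TGAGTCAGC, starting 74 and 89 bases before the start of transcription. In Gstm5, a xenobiotic core lay inside TGACCACGC, and in Gstp1 a second antioxidant core overlapped a xenobiotic core by 1 base. Gstm2 held neither motif in this window. Such matches are common: the antioxidant core was present in 27.8% of all 32851 promoters, in 30.4% of the 69 promoters of tested members and in 34.8% of the 23 promoters of tested Gst genes, and the xenobiotic core in 32.4%, 24.6% and 21.7%. Promoter sequences were matched by symbol for 100 of the 120 members. The matches describe letters in the window, and binding was not measured.

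Over all 12621 genes tested, 337 (2.67%) were lower and 52 (0.412%) higher in Lgr5-CREPTKO at an adjusted p below 0.05 (limma's moderated test, Benjamini-Hochberg). With an absolute log2 fold change above 1 as well, 128 (1.01%) were lower and 16 (0.127%) higher. After all libraries were rescaled to the same total, the split was 242 lower and 86 higher. Of the 61 tested members, 1 was lower (Gstm2) and 0 were higher at an adjusted p below 0.05 by limma, and 0 passed the fold change threshold in either direction. At an unadjusted p below 0.05, 14 members (23.0%) were lower and 5 (8.20%) higher, against 1916 (15.2%) and 1170 (9.27%) of all genes tested. Both Lgr5-CREPTKO mice lay below both Lgr5-WT mice for 23 of 61 members (37.7%), against 31.0% of all genes tested, and above both for 14 (23.0%), against 25.6%. The median log2 fold change was −0.12 over the tested members and −0.014 over all genes tested. After a length and GC correction, described with the Gst genes, these were −0.017 and −0.020, with 31 members negative and 30 positive. In RNA pooled from many cells, fewer cells of a type and less RNA per cell cannot be told apart.

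**Figure D1:**
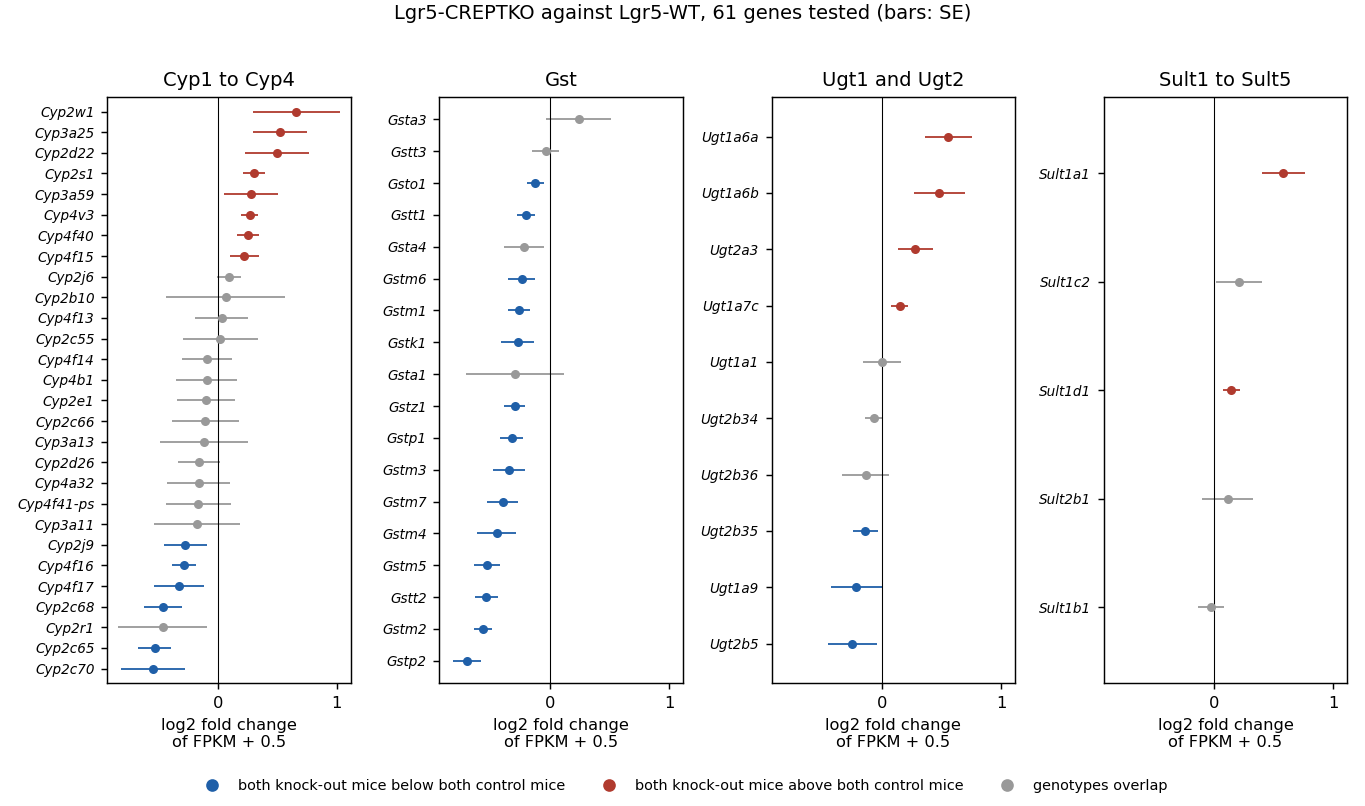
Log2 fold change of FPKM + 0.5, Lgr5-CREPTKO against Lgr5-WT, for the 61 tested members by family, each point 1 gene over 2 mice per genotype and each bar its SE from limma. Blue and red points are genes whose genotypes did not overlap; 14 of 18 Gst genes were blue and 0 red, while the other families held both colours or red and grey.

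The P450 genes, which encode the oxidases of phase I, were expressed at low to moderate levels. None of the 3 Cyp1 genes reached the filter. Cyp1a1, the inducible oxidase of polycyclic aromatic hydrocarbons, was 0.320 and 0.710 FPKM in Lgr5-WT, was listed at 0 in 1 Lgr5-CREPTKO mouse and was 0.700 in the other. It was the member with the highest mean below the threshold (0.433 FPKM), next to Cyp4a10 (0.395), and the lowest means above it were those of Cyp2d22 (0.635) and Gsta3 (0.643). Cyp1a2 and Cyp1b1 reached no more than 0.170 FPKM in any mouse.

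Cyp4v3, a fatty acid omega-hydroxylase, had the highest mean of the P450 genes, with 29.0 and 27.7 FPKM in Lgr5-WT and 34.0 and 34.4 in Lgr5-CREPTKO. Cyp2s1, an oxidase of retinoids and other lipids in epithelia, was 21.01 and 18.7 FPKM in Lgr5-WT against 25.0 and 24.2 in Lgr5-CREPTKO. In both genes the knock-out mice lay above the control mice, by 0.27 (SE 0.0723, adjusted p = 0.113) and 0.30 (SE 0.0901, adjusted p = 0.133) on the log2 scale, short of the threshold of limma's test. Cyp2e1, the ethanol-oxidizing P450, was 35.0 and 26.5 FPKM in Lgr5-WT and 35.4 and 22.8 in Lgr5-CREPTKO. Cyp4f14, which hydroxylates leukotriene B4, was 19.7 and 24.3 FPKM in Lgr5-WT and 16.8 and 24.9 in Lgr5-CREPTKO. The genotypes overlapped for both, and the mice of a genotype differed more from each other than the genotype means did.

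The P450 gene with the most negative fold change was Cyp2c70, a bile acid hydroxylase in rodents, at 1.19 and 0.730 FPKM in Lgr5-WT and 0.450 and 0.530 in Lgr5-CREPTKO (log2 fold change −0.54, SE 0.268, adjusted p = 0.289, limma). The most positive was Cyp2w1, at 1.09 and 0.320 FPKM in Lgr5-WT and 1.26 and 1.35 in Lgr5-CREPTKO (0.66, SE 0.364, adjusted p = 0.334). Both were near the filter, where the log2(FPKM + 0.5) scale understates a change. Over the alternative settings, the log2 fold change of Cyp2c70 ran from −0.81 to −0.31 and that of Cyp2w1 from 0.18 to 1.14. Cyp2c65, an arachidonic acid epoxygenase of the gut chosen here after its values were seen, was 23.6 and 19.3 FPKM in Lgr5-WT and 15.8 and 13.5 in Lgr5-CREPTKO. Its log2 fold change was −0.53 (SE 0.138), and its adjusted p of 0.106 was the smallest of the family. Of its 50-base words, 20.6% occur in other genes, mostly Cyp2c66, so its reads may be divided between the 2.

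Over the family, 16 of 28 tested P450 genes had a negative and 12 a positive fold change, with a median of −0.10. Both knock-out mice were below both controls for 6 (21.4%, against 31.0% of all genes tested) and above both for 8 (28.6%, against 25.6%). None passed limma's adjusted threshold. Unadjusted, 3 lower and 3 higher genes were under 0.05 (10.7% each, against 15.2% and 9.27%). The median was −0.024 after rescaling to the same total and 0.013 once trends with transcript length and GC content were removed (described with the Gst genes), so no direction of the family held over these settings. It was 0.16 without Lgr5-CREPTKO mouse 1, 0.041 without Lgr5-WT mouse 2 and −0.28 without Lgr5-CREPTKO mouse 2. The summed FPKM of all 70 genes was 248 and 236 in Lgr5-WT and 233 and 249 in Lgr5-CREPTKO, and these sums overlapped.

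All 4 tested Cyp3 genes, of the subfamily that oxidizes many drugs, were higher in mouse 2 than in mouse 1 of each genotype. Cyp3a13 was 4.67 and 7.88 FPKM in Lgr5-WT and 3.98 and 7.74 in Lgr5-CREPTKO, and Cyp3a11, also named after its values were seen, was 1.84 and 2.62 FPKM in Lgr5-WT and 1.23 and 2.81 in Lgr5-CREPTKO, and both overlapped. The other 2, likewise chosen afterwards, were above the controls in both knock-out mice: Cyp3a25 was 2.64 and 3.52 against 3.77 and 5.59 (log2 fold change 0.52, SE 0.230, adjusted p = 0.247, limma) and Cyp3a59 was 0.61 and 0.68 against 0.80 and 0.98 (0.28, SE 0.226, adjusted p = 0.4996). Of the 50-base words of Cyp3a25, 25.2% occur in Cyp3a59, and 26.8% of those of Cyp3a59 occur in Cyp3a25, so reads may be divided between them. Over all genes tested, 3308 of 12621 were higher in mouse 2 of both genotypes. Enterocyte markers had this order in 19 of 20 genes. The enterocyte list summed to 977 and 1220 FPKM in Lgr5-WT and 764 and 1176 in Lgr5-CREPTKO, and none of its markers was listed at 0. The part of enterocyte RNA in the Cyp3 values was not tested.

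The glutathione S-transferases, which conjugate glutathione to electrophiles, held most of the members' summed FPKM: 67.9% and 70.9% in Lgr5-WT and 65.0% and 64.8% in Lgr5-CREPTKO. Their sum was 1144 and 1246 FPKM in Lgr5-WT and 961 and 1004 in Lgr5-CREPTKO, so both knock-out mice were below both controls. Of the 18 tested Gst genes, 17 had a negative fold change, 16 of 18 after rescaling to the same total, 15 of 18 after quantile normalization and 14 of 18 without Lgr5-WT mouse 2, with Gsta3 the exception on the deposited scale. Over all genes tested, 6605 of 12621 (52.3%) were negative. The median of the Gst genes was −0.30 (−0.22 rescaled and −0.25 after quantile normalization). Both knock-out mice lay below both controls for 14 of 18 (77.8%, against 31.0% of all genes tested) and above both for 0 (against 25.6%). At an unadjusted p below 0.05, 11 of the 18 (61.1%) were lower and 0 higher, against 15.2% and 9.27% of all genes tested. The tested Gst genes had shorter transcripts (median 1235.5 bases) than all genes tested (3167), and fold changes varied with length, as described below. These shares were not compared within length classes.

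Gstm2, of the Mu class, was 39.4 and 36.7 FPKM in Lgr5-WT and 25.3 and 25.9 in Lgr5-CREPTKO. The 2 genotypes did not overlap, and the difference between their means, 38.1 ± 1.96 and 25.6 ± 0.453 FPKM (SD, n = 2), was several times either SD. Gstm2 fell by 0.56 on the log2 scale (SE 0.0770, adjusted p = 0.0396, limma's moderated test with Benjamini-Hochberg adjustment). The adjusted p ranged from 0.0291 to 0.305 over 14 alternative settings and stayed below 0.05 in 5 of them. It was 0.0523 after rescaling to the same total and 0.123 without the expression filter. Leaving out any 1 of the 4 mice left no gene of the table past the threshold. The log2 fold change of Gstm2 was then −0.51 and −0.61 without Lgr5-WT mouse 1 and 2. It was −0.54 and −0.58 without Lgr5-CREPTKO mouse 1 and 2.

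The 7 Mu class genes lie within 149 kb of chromosome 3 (chr3:107895854-108045179, GRCm38.p6), and in all 7 both knock-out mice were below both controls, as in 31.0% of all genes tested. Gstm5 was 38.2 and 44.9 FPKM in Lgr5-WT and 30.0 and 27.2 in Lgr5-CREPTKO (log2 fold change −0.53, SE 0.110, adjusted p = 0.0727, limma). Gstm1, the most abundant Mu gene, was 67.7 and 69.9 FPKM in Lgr5-WT and 61.5 and 53.3 in Lgr5-CREPTKO (−0.26, SE 0.0923, adjusted p = 0.172). The summed FPKM of the 7 was 217 and 219.98 in Lgr5-WT and 168 and 166 in Lgr5-CREPTKO, so the genotypes were further apart than the mice of either. The log2 fold changes ran from −0.56 (Gstm2) to −0.24 (Gstm6). Between 0% (Gstm4 and Gstm5) and 28.8% (Gstm3) of the 50-base words of a Mu gene occur in other genes, and for Gstm2 the share was 5.65%.

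Gstp1, of the Pi class, had the highest FPKM of all members, with 439 and 500.5 in Lgr5-WT and 360 and 391 in Lgr5-CREPTKO. Its log2 fold change was −0.32 (SE 0.0973, adjusted p = 0.136, limma), short of the threshold although the genotypes did not overlap, and it was −0.16 after quantile normalization. Gstp2, next to it on chromosome 19, was 38.0 and 41.5 FPKM in Lgr5-WT and 26.8 and 22.1 in Lgr5-CREPTKO. It had the most negative fold change of the members, −0.70 (SE 0.117, adjusted p = 0.0558), and passed the threshold under 2 of 14 alternatives, a filter at a mean FPKM of 1 (0.0498) and a fit without small RNA genes (0.0396), within a range of 0.0396 to 0.326. Of its 50-base words, 49.1% occur in the far more abundant Gstp1, so the value of Gstp2 is uncertain. Of the words of Gstp1, 33.7% occur in Gstp2.

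**Figure D2:**
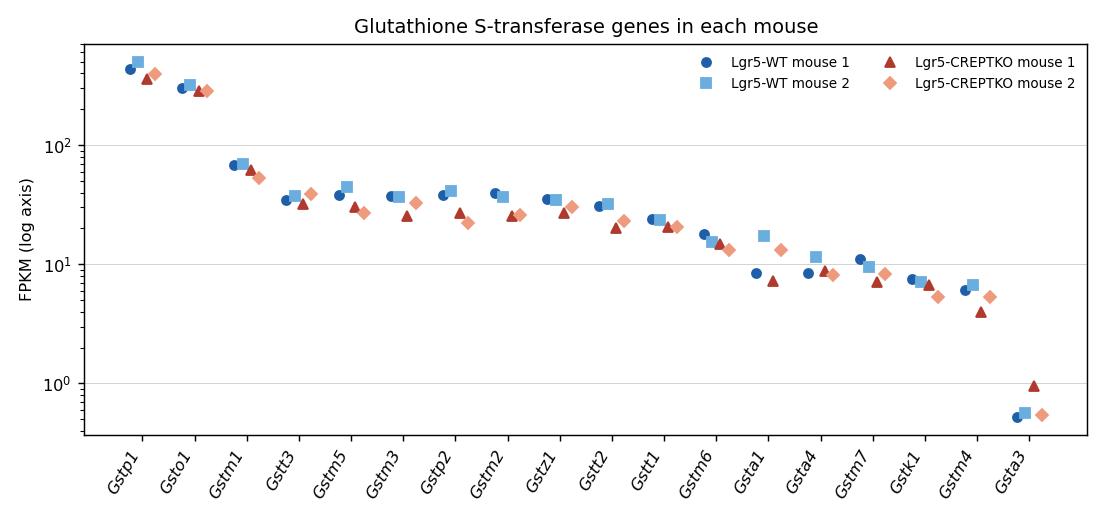
FPKM (log axis) of the 18 tested Gst genes, ordered by mean, with 1 symbol per mouse: blue for the 2 Lgr5-WT and red or orange for the 2 Lgr5-CREPTKO mice. The blue symbols lie above the others in 14 genes; Gstt3, Gsta1, Gsta4 and Gsta3 overlap.

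Gsto1, an Omega class enzyme with dehydroascorbate reductase activity, was the next most abundant, at 299.9 and 319 FPKM in Lgr5-WT and 283 and 285 in Lgr5-CREPTKO (log2 fold change −0.12, SE 0.0705, adjusted p = 0.346, limma). Among the Theta genes, Gstt3 was 34.9 and 37.4 FPKM in Lgr5-WT and 32.0 and 38.8 in Lgr5-CREPTKO, and overlapped. Gstt2, named after its values were seen, was 31.0 and 32.2 FPKM in Lgr5-WT against 20.2 and 23.2 in Lgr5-CREPTKO (−0.54, SE 0.0964, adjusted p = 0.0603). Gstz1, the Zeta enzyme of tyrosine breakdown and likewise chosen afterwards, was 35.5 and 34.6 FPKM in Lgr5-WT and 26.8 and 30.1 in Lgr5-CREPTKO (−0.30, SE 0.0872, adjusted p = 0.130). Both lay lower in each knock-out mouse without passing the adjusted test.

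Of the 3 tested genes of the Alpha class, which is abundant in mature enterocytes, only Gsta1 was higher in mouse 2 of both genotypes. It was 8.44 and 17.2 FPKM in Lgr5-WT and 7.20 and 13.1 in Lgr5-CREPTKO, the order of 19 of 20 enterocyte markers. Of all 18 tested Gst genes, 6 had this order and 2 the reverse. Over all 12621 genes tested, 3308 had it and 2830 the reverse. Gsta4, named after its values were seen, was 8.45 and 11.6 FPKM in Lgr5-WT and 8.78 and 8.14 in Lgr5-CREPTKO, with overlap. Gsta3, the tested Gst gene with the lowest level, was 0.520 and 0.560 FPKM in Lgr5-WT and 0.950 and 0.540 in Lgr5-CREPTKO (log2 fold change 0.24, SE 0.276, adjusted p = 0.642, limma). Of the 50-base words of Gsta1, 90.5% occur in other genes, so its level is uncertain. The remaining 3 Gst genes, Gsta2, Gsto2 and Gstt4, were below the filter, at no more than 0.390 FPKM in any mouse.

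Fold changes varied with transcript length over the whole table. The median log2 fold change was −0.25 for 589 genes whose longest transcript had over 500 and up to 1000 bases, −0.14 for 2180 genes up to 2000 bases, −0.038 for 5040 genes up to 4000 bases and 0.084 for 4313 longer genes, and it was −0.0028 for the 377 shortest. Of the 18 tested Gst genes, 4 fell in the class up to 1000 bases (median −0.31), 11 in that up to 2000 (−0.27) and 3 in that up to 4000 (−0.30), so their medians were lower than those of all genes of the same class. A fit with the length and GC trend removed, chosen after seeing the data, gave a Gst median of −0.13, with 15 of 18 negative, against −0.020 over all 12499 genes with a length. Gstm2 was then at −0.38 (adjusted p = 0.0981), Gstp2 at −0.51 (0.147), Gstt2 at −0.47 (0.0778) and Gstm5 at −0.35 (0.177). The log2 fold change of the abundant Gstp1 went from −0.32 to −0.15 (0.398) and that of Gstm1 from −0.26 to −0.11 (0.617). In this fit 0 members passed limma's threshold, against 235 lower and 22 higher genes in all. Gsto1 changed sign to 0.048. The part of the length trend in the Gst values was not otherwise tested.

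**Figure D3:**
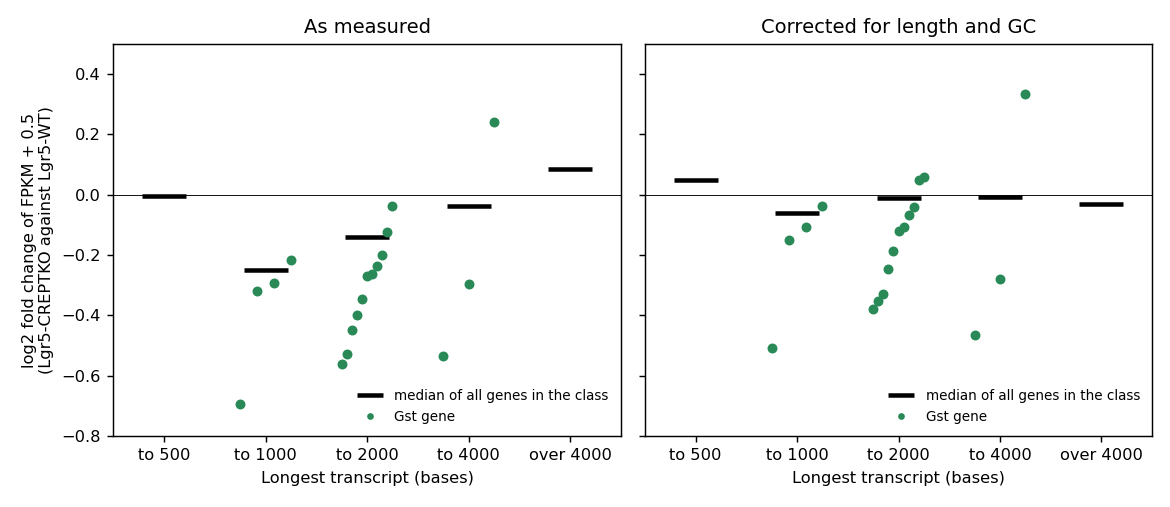
Log2 fold change of FPKM + 0.5, Lgr5-CREPTKO against Lgr5-WT, by length class of the longest transcript, on the deposited values (left) and after removal of the trend with length and GC content (right). Green points are the 18 tested Gst genes, spread sideways by rank for legibility, and black bars are the medians of all genes of a class; 17 green points lie below 0 on the left and 15 on the right.

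Goblet, enteroendocrine and tuft markers had lower sums in both knock-out mice than in both controls, while those of Paneth cells, another secretory type, overlapped. All 10 goblet markers had a negative fold change (median −0.93), 1 of them (Spink4, 10% against 2.67% of all genes tested) at an adjusted p below 0.05, and their sum was 1512 and 2499 FPKM in Lgr5-WT and 839 and 962 in Lgr5-CREPTKO, with Tff3 the most abundant. All 12 tested enteroendocrine markers were negative (median −1.56), 5 of them (41.7%, against 2.67%) past the threshold of limma's test, with sums of 246 and 353 FPKM in Lgr5-WT and 77.3 and 92.0 in Lgr5-CREPTKO. Chgb was their most abundant gene, and Pyy was listed at 0 in 1 Lgr5-WT mouse and Nts in 1 Lgr5-CREPTKO mouse. All 8 tested tuft markers were negative (median −1.26) with 0 past the threshold (5 at an unadjusted p below 0.05, or 62.5% against 15.2%), and summed to 29.0 and 63.6 FPKM in Lgr5-WT and 24.7 and 9.11 in Lgr5-CREPTKO. After the length and GC correction the 3 medians were −0.93, −1.43 and −1.29. Avil was the most abundant tuft marker, and Il25 was listed at 0 in 1 Lgr5-CREPTKO mouse.

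The other lists did not share that order. Of the 10 stem cell markers, 9 had a positive fold change (median 0.23, and 0.18 after the length and GC correction), 0 were past the adjusted threshold and 5 were higher at an unadjusted p below 0.05 (50%, against 9.27% of all genes tested). Their sum, mostly Olfm4, was 6230 and 6037 FPKM in Lgr5-WT and 6768 and 6555 in Lgr5-CREPTKO. Of the 10 Paneth markers, led by Defa24, 9 were positive (median 0.48, corrected 0.69) and 0 passed the adjusted threshold of limma's test. They summed to 1501 and 1110.2 FPKM in Lgr5-WT and 889 and 2855 in Lgr5-CREPTKO, the highest in Lgr5-CREPTKO mouse 2. Immune markers summed to 521 and 1178 FPKM in Lgr5-WT and 288 and 891 in Lgr5-CREPTKO, of which Cd74, which epithelial cells can also express, made up nearly all. Stromal markers summed to no more than 0.680 FPKM, led by Pecam1, with Lum listed at 0 in 3 mice and Acta2 and Col1a2 in 1 or 2 knock-out mice. The part of any of these cell types in the Gst values was not tested.

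**Figure D4:**
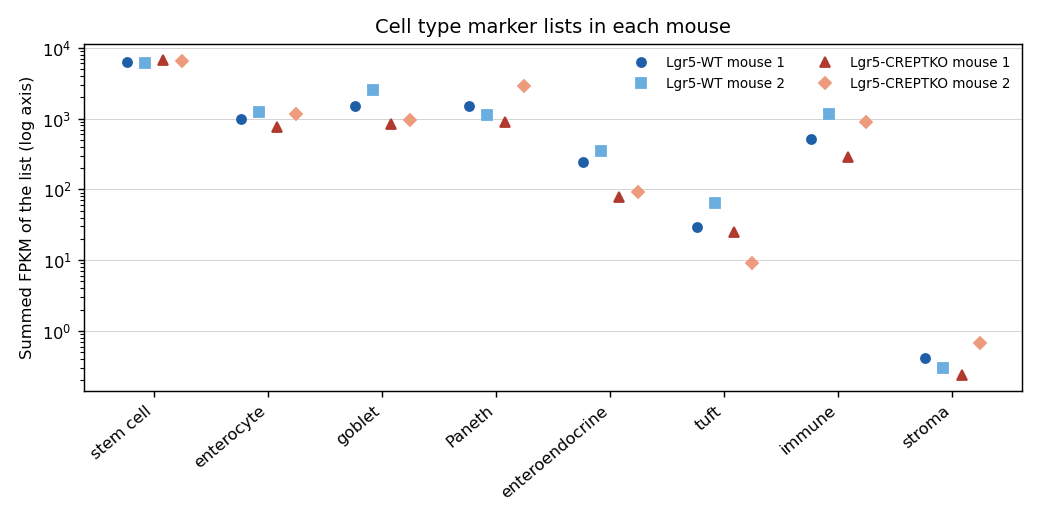
Summed FPKM (log axis) of each cell type marker list in the 4 mice, blue for Lgr5-WT and red or orange for Lgr5-CREPTKO. The goblet, enteroendocrine and tuft sums were lower in both knock-out mice than in both controls, the stem cell sums were higher, and the enterocyte, Paneth, immune and stroma sums overlapped.

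The UDP-glucuronosyltransferases, which add glucuronic acid, come from a Ugt1 locus on chromosome 1 and a Ugt2 cluster on chromosome 5; 2 of 5 tested Ugt1 and 4 of 5 tested Ugt2 genes had a negative fold change. Ugt2b34 was the most abundant at 103.7 and 102 FPKM in Lgr5-WT and 93.4 and 103.1 in Lgr5-CREPTKO, and Ugt2b35 was 39.5 and 38.7 against 32.3 and 38.7. In both, Lgr5-CREPTKO mouse 1 was low and mouse 2 was within 1 FPKM of the controls. Ugt1a1, the bilirubin-conjugating enzyme, was 37.6 and 28.5 FPKM in Lgr5-WT and 35.6 and 30.0 in Lgr5-CREPTKO, with a log2 fold change of −0.0015 (SE 0.162). Ugt1a7c was 31.8 and 29.9 FPKM in Lgr5-WT and 34.3 and 34.1 in Lgr5-CREPTKO (0.15, SE 0.0738, adjusted p = 0.297, limma). Of the 50-base words of Ugt1a1 and Ugt1a7c, 58.2% and 53.7% occur in other genes, so their levels are uncertain.

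Ugt1a6a, which conjugates planar phenols, had the most positive fold change of the family, with 4.22 and 3.69 FPKM in Lgr5-WT and 7.26 and 5.01 in Lgr5-CREPTKO (0.56, SE 0.198, adjusted p = 0.176, limma). Its near-copy Ugt1a6b, named after its values were seen, was 5.15 and 6.94 FPKM in Lgr5-WT and 7.22 and 10.1 in Lgr5-CREPTKO (0.48, SE 0.213, adjusted p = 0.249). The genotypes did not overlap in either gene, but 52.1% and 79.8% of their 50-base words occur in other genes, since Ugt1a transcripts share their last exons, and the division of reads among them is uncertain. Ugt2b5 had the most negative fold change, with 1.32 and 1.11 FPKM in Lgr5-WT and 0.890 and 0.990 in Lgr5-CREPTKO (−0.25, SE 0.203, adjusted p = 0.497). Ugt1a10, below the filter, was 0.530 and 0.450 FPKM in Lgr5-WT and listed at 0 in both Lgr5-CREPTKO mice.

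Of the 10 tested Ugt genes, 6 were negative and 4 positive, with a median of −0.035 that became 0.042 after rescaling to the same total, 0.022 after quantile normalization and 0.050 after the length and GC correction. It was 0.14 without Lgr5-WT mouse 1 and −0.12 without Lgr5-WT mouse 2. Both knock-out mice were below both controls for 3 (30%, against 31.0% of all genes tested) and above both for 4 (40%, against 25.6%). None passed the adjusted threshold of limma's test, and unadjusted, 0 lower genes and 1 higher gene were under 0.05 (0% and 10%, against 15.2% and 9.27%). The 17 genes summed to 239 and 223 FPKM in Lgr5-WT and 226 and 237 in Lgr5-CREPTKO.

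Cytosolic sulfotransferases were the smallest family. Sult1d1, which sulfates catecholamines and phenols, was 30.4 and 29.3 FPKM in Lgr5-WT and 33.8 and 32.2 in Lgr5-CREPTKO (log2 fold change 0.14, SE 0.0740, adjusted p = 0.307, limma). Sult1a1, the phenol sulfotransferase, was 2.82 and 3.15 FPKM in Lgr5-WT and 5.48 and 4.02 in Lgr5-CREPTKO (0.58, SE 0.180, adjusted p = 0.141). In both genes the knock-out mice were above the controls, short of the adjusted threshold. Sult1b1, which sulfates thyroid hormone, was 11.3 and 10 FPKM in Lgr5-WT and 9.89 and 11 in Lgr5-CREPTKO, with the most negative fold change of the family (−0.027, SE 0.111). Sult2b1, which sulfates cholesterol, was 5.57 and 6.49 FPKM in Lgr5-WT and 5.29 and 8.05 in Lgr5-CREPTKO, and both of these genes overlapped between genotypes.

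Of the 5 tested Sult genes, 4 were positive and 1 negative, with a median of 0.14, which was 0.22 after rescaling to the same total and 0.29 after the length and GC correction. Both knock-out mice were below both controls for 0 and above both for 2 (40%, against 25.6% of all genes tested). None passed limma's adjusted threshold, and 0 were lower and 1 higher (20%, against 9.27%) at an unadjusted p below 0.05. The other 7 of the 12 were below the filter. Over the 4 families, 59 members were below it, and none of these reached 1 FPKM in any mouse.

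Regulators of these enzymes were measured as a list of 14 genes, 13 of them tested. None passed the adjusted threshold of limma's test, and the median log2 fold change was 0.15 (0.077 after the length and GC correction). Unadjusted p-values were under 0.05 for 1 lower (7.69%) and 4 higher (30.8%) genes, where all genes tested gave 15.2% and 9.27%. Hnf4a, a nuclear receptor active in gut and liver, was 312 and 304 FPKM in Lgr5-WT and 362 and 347 in Lgr5-CREPTKO (0.20, SE 0.0690, adjusted p = 0.166). Vdr, the vitamin D receptor, was 248 and 274 FPKM in Lgr5-WT and 362 and 323 in Lgr5-CREPTKO (0.39, SE 0.0948, adjusted p = 0.0947). Ppara, a fatty acid sensor with the smallest adjusted p of the list, was 9.01 and 8.34 against 13.4 and 11.3 (0.48, SE 0.117, adjusted p = 0.0945). All 3 were above the controls in each knock-out mouse, and after the correction they were at 0.13, 0.33 and 0.48. Ppara and 4 sensors known for inducing these enzymes were named after their values were seen. Nfe2l2 was 83.8 and 81.6 FPKM in Lgr5-WT and 82.5 and 81.2 in Lgr5-CREPTKO, Nr1i2 (the pregnane X receptor) 31.4 and 29.7 against 29.0 and 31.3, and Nr1i3 (the constitutive androstane receptor) 3.58 and 2.78 against 1.54 and 3.28, with overlap in all 3. Ahr (the aryl hydrocarbon receptor) was 5.42 and 5.11 FPKM in Lgr5-WT and 6.14 and 6.14 in Lgr5-CREPTKO, above the controls in each knock-out mouse but short of limma's adjusted threshold (0.20, SE 0.105, adjusted p = 0.304), and at 0.077 after the correction.

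Among redox partners and other phase I enzymes, 37 of 44 listed genes were tested, and 2 (5.41%) were lower and 1 (2.70%) higher at an adjusted p below 0.05, against 2.67% and 0.412% of all genes tested. At an unadjusted p below 0.05, 10 (27.0%) were lower and 2 (5.41%) higher, against 15.2% and 9.27%, and the median log2 fold change was −0.14 (−0.10 after the length and GC correction). Ephx1, the microsomal epoxide hydrolase, was 25.1 and 22.1 FPKM in Lgr5-WT and 51.5 and 53.3 in Lgr5-CREPTKO. It rose by 1.14 on the log2 scale (SE 0.0893, adjusted p = 0.0280, limma), from a mean of 23.6 ± 2.09 to 52.4 ± 1.28 FPKM (SD, n = 2), and it alone of the listed pathway genes also passed the fold change threshold. Nqo1, the quinone reductase, was 8.11 and 6.80 FPKM in Lgr5-WT and 3.86 and 4.10 in Lgr5-CREPTKO and fell by 0.82 (SE 0.130, adjusted p = 0.0492). Akr1c13, an aldo-keto reductase, was 73.1 and 76.5 FPKM in Lgr5-WT and 55.0 and 50.5 in Lgr5-CREPTKO and fell by 0.50 (SE 0.0776, adjusted p = 0.0474).

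The calls differed in how they held. After the length and GC correction, Ephx1 was at 1.25 (adjusted p = 0.0292, limma), Nqo1 at −0.69 (0.0750) and Akr1c13 at −0.32 (0.117). Over the 14 alternatives, the adjusted p of Ephx1 ranged from 0.0142 to 0.305 and was below 0.05 in 8, that of Nqo1 ranged from 0.0370 to 0.305 (3 of 14) and that of Akr1c13 from 0.0358 to 0.310 (4 of 14). No call of the table held without 1 mouse, so these fits cannot tell genes apart by their calls. The log2 fold changes then ran from 1.05 to 1.22 for Ephx1, from −0.94 to −0.70 for Nqo1 and from −0.56 to −0.44 for Akr1c13. The 2 most abundant genes of the list, Akr1a1 and Adh1, did not pass. Akr1a1 was 409 and 455 FPKM in Lgr5-WT and 391 and 420.4 in Lgr5-CREPTKO, and Adh1, the retinol- and ethanol-oxidizing dehydrogenase, was 229.6 and 371 against 148 and 170.2 (−0.88, SE 0.237, adjusted p = 0.113). Por, the electron donor of all microsomal P450 enzymes and named after its values were seen, was 26.5 and 26.0 FPKM in Lgr5-WT and 34.5 and 33.6 in Lgr5-CREPTKO (0.37, SE 0.0708, adjusted p = 0.0656).

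**Figure D5:**
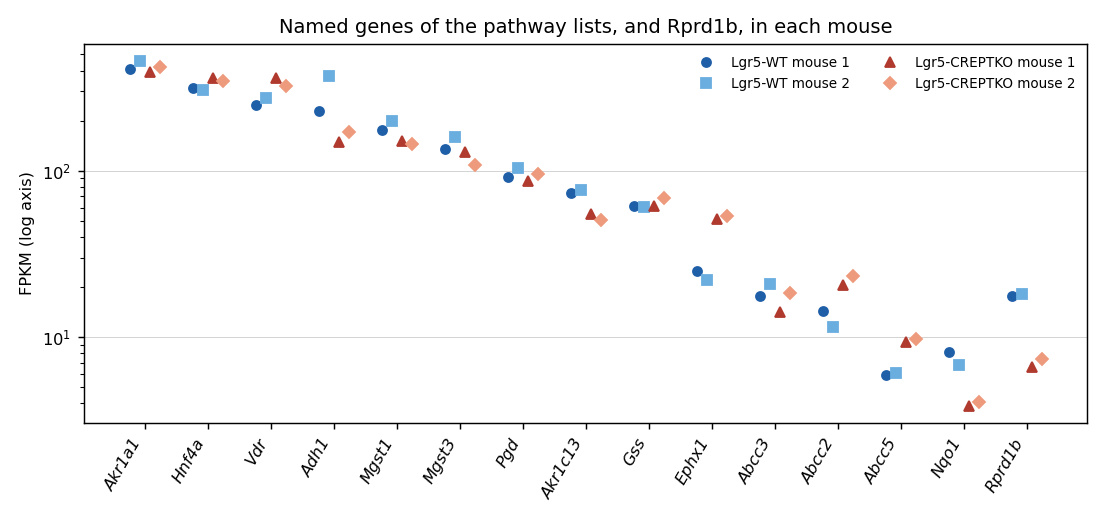
FPKM (log axis) of the named genes of the pathway lists, ordered by mean, and of Rprd1b at the right, with 1 symbol per mouse, blue for Lgr5-WT and red or orange for Lgr5-CREPTKO. Ephx1 and Abcc5 were higher and Nqo1, Akr1c13 and Rprd1b lower in both knock-out mice.

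Other conjugating enzymes gave 8 tested of 15 listed genes, with a median of −0.32 (−0.15 after the length and GC correction) and none past limma's adjusted threshold (unadjusted, 4 lower and 0 higher genes were under 0.05, or 50% and 0%, against 15.2% and 9.27% of all genes tested). The membrane-bound glutathione transferases led in level: Mgst1 was 175 and 198 FPKM in Lgr5-WT and 151 and 144 in Lgr5-CREPTKO (−0.34, SE 0.0880, adjusted p = 0.107), and Mgst3 was 135 and 159 against 129.9 and 109 (−0.31, SE 0.127, adjusted p = 0.224). After that correction they were at −0.15 and −0.13. Mgst2, named after its values were seen, did not share that direction: it was 46.8 and 54.4 FPKM in Lgr5-WT and 61.8 and 55.7 in Lgr5-CREPTKO (0.22, SE 0.105, adjusted p = 0.281, limma), above the controls in both knock-out mice. Cofactor supply gave 15 tested of 16, with a median of −0.10 (−0.062 corrected) and none past the threshold (3 lower and 1 higher unadjusted, or 20% and 6.67%, against the same 15.2% and 9.27%). Pgd, an NADPH source of the pentose phosphate pathway, was 91.4 and 104 FPKM in Lgr5-WT and 86.9 and 95.0 in Lgr5-CREPTKO, and Gss, glutathione synthetase, was 61.7 and 60.1 against 61.5 and 68.9. Both overlapped.

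Of 11 listed transporters, 9 were tested, with a median of −0.079 (−0.14 after the length and GC correction), and 1 (11.1%, against 0.412% of all genes tested) was higher past limma's adjusted threshold. Unadjusted, 1 was lower (11.1%) and 3 were higher (33.3%) at a p under 0.05, against 15.2% and 9.27%. Abcc5, an exporter of organic anions and nucleotides, was 5.95 and 6.12 FPKM in Lgr5-WT and 9.36 and 9.78 in Lgr5-CREPTKO and rose by 0.62 (SE 0.0958, adjusted p = 0.0473). Its adjusted p was 0.0851 after the length and GC correction and was below 0.05 in 6 of the 14 alternatives. With all mice kept, it ranged from 0.0374 to 0.128. No call of the table held without 1 mouse, and the log2 fold change of Abcc5 then ran from 0.59 to 0.65. Abcc2, which exports glutathione and glucuronide conjugates, was 14.3 and 11.5 FPKM in Lgr5-WT and 20.5 and 23.4 in Lgr5-CREPTKO (0.75, SE 0.134, adjusted p = 0.0604), and Abcc3 was 17.6 and 20.99 against 14.2 and 18.4, with overlap. Neither passed the threshold. Over all 5 pathway lists, 2 of 82 tested genes (2.44%) were lower and 2 (2.44%) higher at an adjusted p below 0.05, against 2.67% and 0.412% of all genes tested, with a median of −0.085 (−0.060 corrected).

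Genes that mark position along the gut had slightly higher sums in both knock-out mice than in both controls, at either end. Of 5 tested proximal markers, 2 were negative and 3 positive (median 0.076, and −0.13 after the length and GC correction), and the list summed to 93.7 and 92.3 FPKM in Lgr5-WT and 94.1 and 96.1 in Lgr5-CREPTKO. Of 4 tested distal markers, 1 was negative and 3 positive (median 0.31, and 0.24 after that correction), with sums of 30.0 and 30.0 FPKM in Lgr5-WT and 33.5 and 31.9 in Lgr5-CREPTKO. None of these 9 genes passed the adjusted threshold of limma's test, and 1, the proximal marker Pdx1, was lower at an unadjusted p below 0.05 (15.2% of all genes tested were). Pdx1, named after its values were seen, was 7.98 and 7.73 FPKM in Lgr5-WT and 4.21 and 5.81 in Lgr5-CREPTKO (−0.62, SE 0.167). That is against the direction of the proximal sum, which was led by Gata4.

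The p-values rest on the spread between mice, 2 in each genotype, which limma moderated toward an intensity trend over all genes tested. They thus also draw on the spread of other genes. Without that trend, 4 genes in place of 337 were lower at an adjusted p below 0.05 by limma. An exact two-sided permutation of 2 against 2 for a single gene cannot go below 0.333. FPKM carries no counts, and 15 of the 61 tested members share over 20% of their 50-base words with other genes, so their levels are less certain than those of the rest.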

How the data were processed

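RNA of sorted cells was sequenced on a BGISEQ-500. The authors deposited FPKM values per gene symbol and sample; their notes name HISAT, Bowtie2 and RSEM (no versions) and mm10. The study's RNA-seq methods give the GRCm38.p6 genome, reference transcripts for Bowtie2, and RSEM, without speaking of sorted cells. FPKM summed to 495758 and 499327 in Lgr5-WT and 468830 and 473662 in Lgr5-CREPTKO. Small RNA genes of equal length had value steps 0.985, 0.991 and 1.03 times those of Lgr5-WT mouse 1 in the other libraries, an estimate of nearly equal depth; total reads were not used.

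Genotypes came from the column names. Genes with a mean FPKM of at least 0.5 were tested on log2(FPKM + 0.5), a scale that understates changes of low genes, with limma 3.58.1 (intensity trend, R 4.3.3) and Benjamini-Hochberg adjustment over all genes tested; a count model could not be run on FPKM. The code was tested on simulated data. Lengths and shared 50-base words came from GENCODE M21. Named were members with an adjusted p below 0.05, the 4 most abundant and the most negative and positive of each family. Pathway genes called, the 2 most abundant of each list, Rprd1b and Lgr5 were named too. Other genes are said to be chosen later or, like Cyp1a1, Cyp3a13, Gsta1, Ugt1a10 and Olfm4, were named outside this rule without being marked so. Members and lists were chosen with earlier results of these data known. Alternatives were pseudocounts of 0.1 and 1, no filter or 1, rescaling, quantile normalization, no intensity trend, no small RNA genes, a replicate block, each mouse left out and, added after seeing the data, removal of length and GC trends. The listed Sh2d6, Gnat3, Hoxb13 and Car1 were not analysed here.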

Additional observations from a re-analysis of the deposited data

How the results depend on the processing

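Of 376 values of 27 named genes under 14 alternatives, 306 kept direction and side of the threshold, 44 calls were lost, 2 were gained, and 24 values of 8 genes without a call changed sign. After the length and GC correction these were Gsto1 (0.048), Gstt3 (0.059), Sult1b1 (0.095), Ugt1a1 (0.069) and Cyp2e1 (0.0083), after rescaling Gstt3 (0.039), Ugt2b34 (0.0086), Ugt1a1 (0.076) and Sult1b1 (0.048), and after quantile normalization Gsto1 (0.0033), Gstt3 (0.0037) and Ugt1a1 (0.045). Without 1 mouse, Gstt3 ran from −0.18 to 0.099, Ugt2b34 from −0.14 to 0.0014, Ugt1a1 from −0.20 to 0.20, Cyp2e1 from −0.41 to 0.21, Cyp4f14 from −0.37 to 0.18, Sult1b1 from −0.11 to 0.058 and Sult2b1 from −0.17 to 0.39. Members lower at an adjusted p below 0.05 were 1 on the deposited scale, 2 with a filter at 1, 3 without small RNA genes (Gstm2, Gstp2 and Gstt2), and 0 without the filter, after rescaling, without the intensity trend, after the length and GC correction (chosen after seeing the data) and in every fit without 1 mouse (0 to 0). Fits without 1 mouse assume that the lone mouse varies like the other genotype. Genes lower over the table were 337, against 0 without the filter, 4 without the intensity trend, 508 without small RNA genes and 0 to 0 without 1 mouse. Genes higher were 52, against 0, 0, 115 and 0 to 0 there, 86 after rescaling and 22 after the length and GC correction. With the replicate block, 168 genes were lower, 15 higher and 0 members called. Same-numbered mice deviated with a correlation of −0.03 over 12621 genes. That value cannot tell whether a smaller set of genes varied together by mouse number. Of the enterocyte markers, 19 of 20 were higher in mouse 2 of both genotypes. The labels give numbers and no pairing, and what same-numbered mice shared was not tested. The Gst median moved to −0.22 (rescaled) and −0.13 (length and GC), and ran from −0.38 to −0.26 without 1 mouse; that of Ugt to 0.042 and 0.050, from −0.12 to 0.14; that of Sult to 0.060 without the filter, 0.22 rescaled, 0.18 after quantile normalization and 0.29 (length and GC), from 0.12 to 0.23; that of Cyp ran from −0.28 to 0.16 without 1 mouse. Members past the fold change threshold were 0 in every fit. Dropping the filter tests more genes; the cause of the other shifts was not tested. FPKM is given to 2 decimals, and depth may limit genes of low FPKM, which was not tested.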
